A study of Mus musculus with 6 samples.

Results

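Transcripts of 10 genes that encode secreted peptide precursors or granins were examined in neurons of the preBötzinger Complex (preBötC), the medullary site at which the inspiratory rhythm arises. The genes were chosen by name, as *Cck*, *Adcyap1*, *Cartpt*, *Gal*, *Nts*, *Vip*, *Chga*, *Chgb*, *Scg2* and *Vgf*, and make up 10 of the 49568 gene names in the data. All neurons came from Dbx1CreERT2; Rosa26tdTomato mice at postnatal day 2, whose dams received tamoxifen during gestation so that cells from Dbx1-expressing progenitors became tdTomato fluorescent. The 3 Dbx1 samples held 15 fluorescent neurons each and the 3 non-Dbx1 samples held 15 non-fluorescent neurons each, drawn by micropipette, with every sample from a different mouse. The Cre is inducible, so a neuron without fluorescence is defined by the lack of label and not by a marker of its own. Each sample pools its neurons, hence fewer expressing neurons and less RNA per neuron cannot be told apart. Expression is given as RPKM, the reads on a gene per kilobase of exon and scaled to a common depth of reads on genes.

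Neuropeptides are cut from larger precursors inside dense-core vesicles and are released together with fast transmitters such as glutamate, GABA or glycine. Granins are acidic proteins that help to form those vesicles and are themselves cut into peptides, so most neurons and endocrine cells make them. Peptide precursors, in contrast, usually mark particular neuron types. Peptides are known to modulate breathing, and *Adcyap1*, which encodes PACAP, has been linked to respiratory control in newborn animals.

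The depth of the 6 samples was 6464675 to 9432958 reads on genes. The summed RPKM of 6 neuronal markers (*Tubb3*, *Snap25*, *Syn1*, *Eno2*, *Rbfox3*, *Map2*) ranged from 994 to 1708 among Dbx1 samples and from 993 to 1380 in the non-Dbx1 samples. Other markers set samples apart. The sum of 8 genes of a catecholaminergic list, which includes the peptide gene *Npy*, was 8685 in non-Dbx1 replicate 2 and 6.60 to 56.0 in the other 5 samples. Most of the sum in that sample was *Npy*, at 7800 RPKM. Genes of catecholamine synthesis were also highest there, such as *Dbh* at 339 and *Pnmt* at 192. The sum of 6 cholinergic and motor neuron genes was 157 in non-Dbx1 replicate 3 and 3.14 to 27.8 elsewhere. The sum of 10 glial and vascular genes was 46.6 to 303 in the non-Dbx1 samples and 10.3 to 22.4 in the Dbx1 samples, and that of 5 erythroid genes 733 to 14058 and 90.3 to 507, without overlap in either case. The sum of 4 serotonergic genes was 0.0968 to 6.39 in Dbx1 and 7.41 to 29.0 in non-Dbx1 samples, and the non-Dbx1 values were those of *Gata3* alone. *Tph2* was at 3.36 in Dbx1 replicate 1 and 0 in the other 5 samples, and *Slc6a4* and *Fev* were at 0 in all 6.

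All 10 genes had reads in at least 1 sample, and 8 had reads in all 6. By mean RPKM over the 6 samples, *Chga* was highest at 253, followed by *Cartpt* at 171, *Scg2* at 157, *Chgb* at 97.0, *Adcyap1* at 35.6, *Vgf* at 17.2, *Gal* at 6.42, *Cck* at 5.82, *Vip* at 1.82 and *Nts* at 1.07. *Chga* ranked 120 and *Cartpt* 207 among all genes, and *Nts* lay at percentile 49.7 of the genes with reads in any sample. *Chga* was the highest of the 10 in every sample except non-Dbx1 replicate 2, where *Cartpt* was highest. The order among neighbours was not firm, since the 6 values of *Chga*, *Cartpt* and *Scg2* overlapped, as did those of *Gal* and *Cck*. It also depended on exon length. With the merged exon length of the GENCODE vM21 annotation, *Scg2* measured 301 and *Chga* 173, because the length behind the deposited RPKM was 4832 bases for *Scg2*, against 2515 merged, and 1882 bases for *Chga*, against 2756. Ratios of a gene's RPKM between samples are not affected by its length. Differences of log2(RPKM + 1), used below, depend on it where levels are low.

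**Figure D1:**
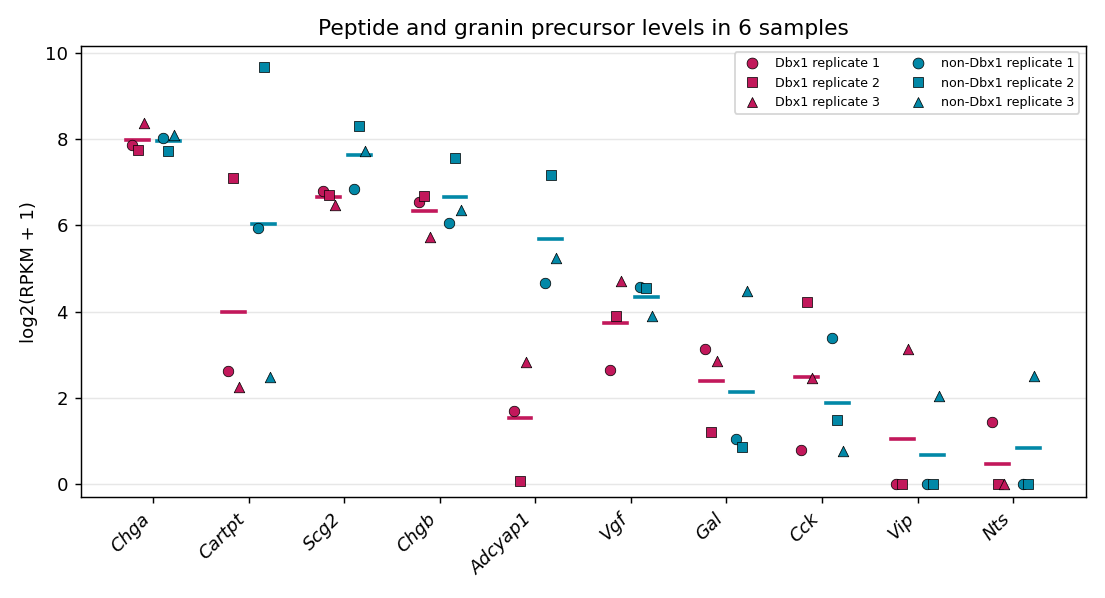
Levels of the 10 precursor genes on a log2(RPKM + 1) axis, ordered by mean RPKM, with 1 point per sample (magenta for Dbx1, blue for non-Dbx1) and a bar at each group mean of the log2 values. *Chga* points lie close together, *Cartpt* points span from 3.78 to 817 RPKM, and *Adcyap1* is the gene whose groups lie farthest apart.

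The 6 peptide precursors varied far more between samples of a group than the 4 granins, as a description without a test. The SD of log2(RPKM + 1) within groups was 1.18 to 3.17 for the peptide precursors and 0.27 to 0.78 for the granins, beside a median of 0.55 over the 17614 tested genes and of 0.33 over the 1022 tested genes with a mean RPKM of at least 50. All 6 peptide precursors and 2 of the granins exceeded the median of all tested genes, which did not include *Nts* and *Vip*. Genes of higher level had a lower median, 0.43 at a mean RPKM of at least 10. Beside genes of like level, *Chgb* (0.67), *Scg2* (0.53) and *Vgf* (0.78) were also above the median, and *Chga* (0.27) was not. Spreads of *Gal*, on 5 to 143 reads, and of *Nts* rest on few reads. *Cartpt* had the widest spread and *Chga* the narrowest. Non-Dbx1 replicate 2 held the highest value of 4 genes (*Adcyap1*, *Cartpt*, *Chgb* and *Scg2*), Dbx1 replicate 3 of 3 (*Chga*, *Vgf* and *Vip*), non-Dbx1 replicate 3 of 2 (*Gal* and *Nts*) and Dbx1 replicate 2 of 1 (*Cck*).

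None of the 10 genes passed the test of Dbx1 against non-Dbx1 neurons. The test was a limma fit to log2(RPKM + 1), made for every gene that had reads in 3 or more samples (17614 genes), which left out *Nts* and *Vip*. Of the 8 tested genes, 0 passed an FDR of 0.1 in either direction, beside 0% of all tested genes for Dbx1 higher and 0.00568% for non-Dbx1 higher. At an unadjusted p under 0.05 in limma, 0 of the 8 were higher in Dbx1 samples (background 2.73%) and 2, *Adcyap1* and *Scg2*, were higher in non-Dbx1 samples (background 2.48%). The same 2 genes were those whose groups did not overlap, in a direction shown by 5.24% of tested genes. L2FC, the difference between group means of log2(RPKM + 1), is positive where Dbx1 neurons were higher. It was above 0 for 3 and below 0 for 5 of the 8 genes, with a median of −0.46 beside 0.01 over all tested genes.

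**Figure D2:**
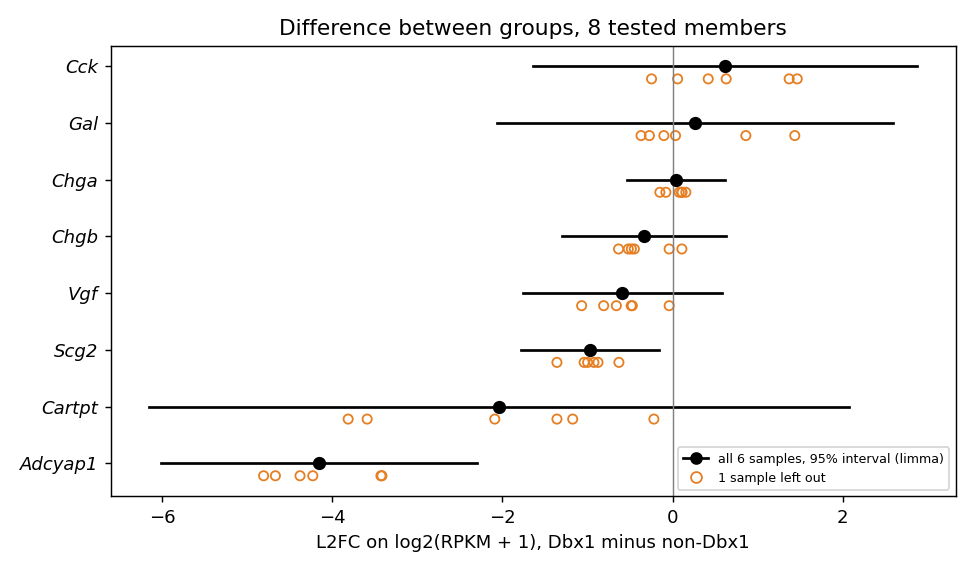
L2FC of the 8 tested precursor genes on the log2(RPKM + 1) scale, as Dbx1 minus non-Dbx1, with black points and lines for the estimate and its 95% interval from limma and open orange circles for the 6 fits that each left out 1 sample. The intervals of *Adcyap1* and *Scg2* lie below 0 and the other 6 cross it.

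Sequence before a RefSeq transcript start of 4 of these genes is shown because they share non-Dbx1 replicate 2 as their highest sample. The cAMP response element, the site bound by the activity-regulated factor CREB, has the letters TGACGTCA, which read the same on both strands. RefSeq promoter windows on GRCm38.p6, from 250 bases before to 50 after a transcript start, were given for 9 of the 10 genes. The element was found in 3 of them, *Scg2*, *Chgb* and *Cartpt*, and in 1.79% of all 32851 windows. Its first base lay 68, 72 and 112 bases before the start. Shares of all windows are per window, from 27025 gene symbols, whereas the precursor genes are counted per gene. *Adcyap1* did not hold the whole element. It held the first 5 letters, TGACG, 91 bases before the start of the upstream of its 2 windows. These 5 letters occur on either strand in 20.8% of all windows, with those that hold the whole element included. *Chga*, *Vip*, *Cck* and *Nts* likewise held these 5 letters but not the whole element, on either strand, 44 to 166 bases before the start. The window of *Gal* held them after the start, so that all 9 genes with a window had at least these 5 letters. In *Adcyap1* and *Vip* the match ran on to TGACGTC, all but the last letter, and in *Chga* to TGACGT. Only the whole element and the 5 letters were counted over all windows. The stretches of *Scg2*, *Chgb* and *Cartpt* precede a RefSeq start but lie within the GENCODE span of the gene. Capitals mark the whole element, or the 5 letters in *Adcyap1*. The stretches below are written 5′ to 3′ on the gene's strand, from chr1:79440067-79440114 (minus strand), chr2:132781550-132781597 (plus), chr13:99900768-99900815 (minus) and chr17:93198906-93198950 (plus) in this order.
Scg2: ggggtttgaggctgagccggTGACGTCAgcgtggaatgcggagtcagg
Chgb: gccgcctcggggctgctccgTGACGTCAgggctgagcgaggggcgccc
Cartpt: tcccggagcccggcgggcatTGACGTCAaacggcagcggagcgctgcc
Adcyap1: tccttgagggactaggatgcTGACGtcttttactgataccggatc
A match describes letters only, and binding was not measured.

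*Adcyap1* showed the widest separation between the groups. It encodes the precursor of PACAP, a peptide of the secretin family that raises cAMP in its target cells. *Adcyap1* (ENSMUSG00000024256) lies on chromosome 17 from 93199017 to 93206537 of GRCm38 on the plus strand. RPKM measured 2.23, 0.0636 and 6.19 in Dbx1 replicates 1, 2 and 3, and 24.4, 143 and 37.0 in non-Dbx1 replicates 1, 2 and 3. Values of other genes follow the same replicate order. Every non-Dbx1 sample exceeded every Dbx1 sample, and the value in Dbx1 replicate 2 rested on 1 read whereas non-Dbx1 replicate 2 had 2563 reads. Means were 2.83 ± 3.11 and 68.3 ± 65.4 RPKM (SD, n = 3), a 24.1-fold higher mean in non-Dbx1 neurons. The exact permutation test gave p = 0.10, the smallest that 3 samples against 3 allow. L2FC was −4.16 (standard error 0.81, 95% interval −6.01 to −2.30), and 2 of the 17614 tested genes had an L2FC of larger size. The unadjusted limma p was 0.000775, 15 genes having a lower p, and the FDR was 0.697, so *Adcyap1* was not called.

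Without non-Dbx1 replicate 2, the sample high in catecholaminergic genes, the *Adcyap1* mean of the remaining non-Dbx1 samples was 10.9-fold higher than the Dbx1 mean. L2FC was then −3.42 (standard error 0.80), with a limma FDR of 0.893. The groups did not overlap with all 6 samples, so leaving 1 out could only change the size of the difference. Among genes of catecholamine synthesis, *Pnmt* separated the groups as *Adcyap1* did, at 4.94, 2.66 and 3.08 RPKM against 20.9, 192 and 9.40, whereas *Dbh* and *Th* were at 0 in non-Dbx1 replicate 3. The part of catecholaminergic neurons in the *Adcyap1* difference was not tested. Erythroid and glial or vascular sums were also higher in every non-Dbx1 sample, and their part in the result was not tested.

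*Cartpt*, which encodes the precursor of the CART peptides, was expressed strongly in some samples of both groups. *Cartpt* (ENSMUSG00000021647) lies on chromosome 13 from 99898489 to 99901091 on the minus strand. RPKM measured 5.18, 135 and 3.78 among Dbx1 samples, against 60.2, 817 and 4.61 among non-Dbx1 samples. Levels were thus high in 3 samples, from both groups, and low in the other 3. Group means were 48.1 ± 75.5 and 294 ± 454 RPKM (SD, n = 3), and L2FC was −2.04 ± 1.80 (standard error; limma FDR = 0.951), with p = 0.60 in the exact permutation test. The sample with 817 RPKM was also the sample with 339 RPKM of *Dbh*, 192 of *Pnmt*, 114 of *Th* and 7800.2 of *Npy*, genes of catecholamine synthesis and a peptide that such neurons often make. Non-Dbx1 replicate 1, with 60.2 RPKM of *Cartpt*, had 11.8 of *Dbh* and 20.9 of *Pnmt*. Dbx1 replicate 2, in contrast, had 135 RPKM of *Cartpt* with *Dbh* at 0 and *Th* at 0.102. Without non-Dbx1 replicate 2, the non-Dbx1 mean of 32.4 was below the Dbx1 mean and L2FC was −0.22.

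**Figure D3:**
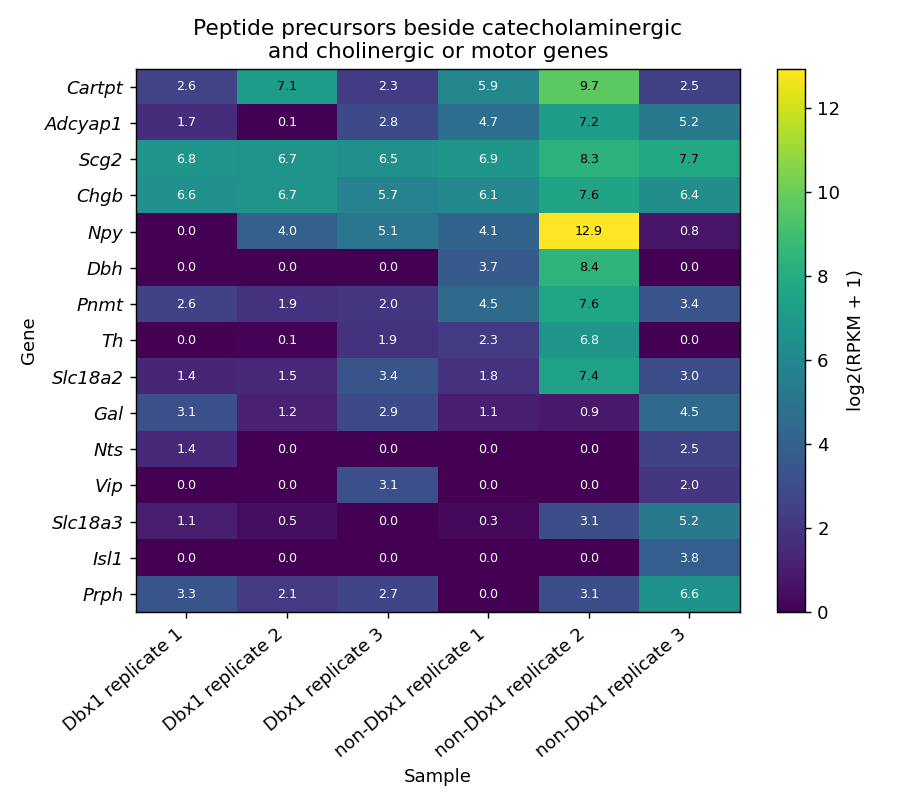
Levels of peptide precursors beside genes of the catecholaminergic list (*Npy* to *Slc18a2*) and cholinergic or motor neuron genes (*Slc18a3* to *Prph*), as log2(RPKM + 1) in each of the 6 samples. Colour and printed value give the same number, and *Npy* is itself a peptide gene. Non-Dbx1 replicate 2 is high in *Cartpt*, *Adcyap1* and all 5 genes from *Npy* to *Slc18a2*, and non-Dbx1 replicate 3 is high in *Gal*, *Slc18a3*, *Isl1* and *Prph*.

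*Gal*, *Nts* and *Vip* were low and uneven. *Gal* (ENSMUSG00000024907, chromosome 19 from 3409915 to 3414544, minus strand) encodes galanin, a mostly inhibitory peptide. RPKM of *Gal* measured 7.77, 1.31 and 6.26 among Dbx1 samples, against 1.09, 0.821 and 21.3 among non-Dbx1 samples, on 5 to 143 reads. The groups overlapped, non-Dbx1 replicate 3 being highest and the other non-Dbx1 samples lowest, and L2FC was 0.26 with a standard error of 1.02 (limma FDR = 0.988). That sample also had 13.3 RPKM of *Isl1*, a motor neuron transcription factor, which was at 0 in the other 5 samples, 37.0 of *Slc18a3*, the vesicular acetylcholine transporter, and 94.96 of *Prph*, an intermediate filament of motor and sensory neurons. *Chat*, the acetylcholine-synthesizing enzyme, measured 3.999 there. Other genes of the cholinergic and motor neuron list did not peak in that sample. *Mnx1* was at 0 there, and *Slc5a7* measured 7.91, below 10.9 in non-Dbx1 replicate 2 and 8.52 in Dbx1 replicate 3. The part of cholinergic or motor neurons in the *Gal* value was not tested.

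*Nts* (ENSMUSG00000019890), on chromosome 10 from 102481756 to 102490486 on the minus strand, encodes neurotensin. It measured 1.71 RPKM in Dbx1 replicate 1 and 4.69 in non-Dbx1 replicate 3, and 0 in the other 4 samples. The smallest read numbers that give these values are 4 and 13, and at the lowest depth 3 reads correspond to at most 1.58 RPKM. *Vip* (ENSMUSG00000019772), on chromosome 10 from 5639218 to 5647617 on the plus strand, encodes vasoactive intestinal peptide, a close relative of PACAP. It measured 7.82 RPKM in Dbx1 replicate 3 and 3.11 in non-Dbx1 replicate 3, on 221 and 119 reads, and 0 in the other 4 samples, for which the 3-read floor was at most 0.114 RPKM. Both genes thus appeared in 1 sample of each group (exact permutation test, p = 1.0 for each). When all genes with reads in at least 1 sample were tested, L2FC was −0.36 for *Nts* and 0.37 for *Vip*, with limma FDR of 0.906 and 0.927. Floors cover counting error only, as amplified reads are not independent molecules.

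*Cck* (ENSMUSG00000032532), which encodes cholecystokinin, lies on chromosome 9 from 121489824 to 121495694 on the minus strand. RPKM measured 0.737, 17.7 and 4.53 among Dbx1 samples, against 9.47, 1.80 and 0.699 among non-Dbx1 samples, on 16 to 363 reads. High and low samples occurred in both groups. L2FC was 0.62 ± 0.99 (standard error; limma FDR = 0.968), with p = 0.60 in the exact permutation test, and it was −0.25 without Dbx1 replicate 2.

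Of the granins, *Chga* was the most even. Chromogranin A, its product, is a classic marker of dense-core vesicles. *Chga* (ENSMUSG00000021194) lies on chromosome 12 from 102554969 to 102565028 on the plus strand. RPKM measured 231, 215 and 329 among Dbx1 samples, against 262, 210.2 and 274 among non-Dbx1 samples, and the highest was 1.56 times the lowest. L2FC was 0.04 (standard error 0.25, 95% interval −0.54 to 0.62, limma FDR = 0.991).

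*Scg2* was the granin that separated the groups, by a narrow margin. It encodes secretogranin II, the precursor of secretoneurin, and lies (ENSMUSG00000050711) on chromosome 1 from 79434669 to 79440120 on the minus strand. RPKM measured 110, 104 and 87.4 among Dbx1 samples, against 114, 316 and 210.0 among non-Dbx1 samples. All non-Dbx1 samples lay above the Dbx1 samples, but replicate 1 of the non-Dbx1 samples was close to the highest Dbx1 sample. Means were 100.3 ± 11.6 and 214 ± 101 RPKM (SD, n = 3), a 2.13-fold higher mean in non-Dbx1 neurons (exact permutation test, p = 0.10). L2FC was −0.97 (standard error 0.36, 95% interval −1.79 to −0.16), with an unadjusted limma p of 0.0248 and an FDR of 0.912. Without non-Dbx1 replicate 2 the L2FC was −0.63 and the unadjusted limma p was 0.0900. The part of the catecholaminergic, glial and erythroid markers in the *Scg2* values was not tested.

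*Chgb* and *Vgf* overlapped between the groups. *Chgb* (ENSMUSG00000027350, chromosome 2 from 132781278 to 132795079, plus strand) encodes chromogranin B and measured 92.8, 102 and 52.2 RPKM among Dbx1 samples, against 66.0, 187 and 81.6 among non-Dbx1 samples. Its L2FC of −0.34 (standard error 0.42, limma FDR = 0.960) changed sign, to 0.11, without non-Dbx1 replicate 2. *Vgf* (ENSMUSG00000037428, chromosome 5 from 137026392 to 137033351, plus strand) encodes a granin that growth factors and activity induce. RPKM of *Vgf* measured 5.28, 13.8 and 25.1 among Dbx1 samples, against 22.8, 22.4 and 13.9 among non-Dbx1 samples. The lowest value lay in Dbx1 replicate 1, and L2FC was −0.59 with a standard error of 0.51 (limma FDR = 0.951). The summed RPKM of 8 immediate early genes, which neural activity and handling induce, was also lowest in that sample, at 11.3 against 20.3 to 43.7 in the other 5. Its members did not move together, since *Fos* and *Egr1* were at 0 in that sample whereas *Arc*, *Npas4* and *Fosb* were at their highest of the 6 samples there. Their part in the *Vgf* value was not tested.

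Precursors need enzymes and vesicle proteins to become released peptides, and all 20 genes of that kind that were examined had reads. In limma, 0 of 20 passed an FDR of 0.1, with 1 higher in Dbx1 (background 2.73%) and 2 higher in non-Dbx1 samples (background 2.48%) at an unadjusted p under 0.05. Their median L2FC was 0.08. The highest means over 6 samples were those of *Scg5*, the chaperone of prohormone convertase 2, at 339 RPKM, *Cpe*, which trims basic residues after cleavage, at 335, and *Pcsk1n*, a granin-like inhibitor of prohormone convertase 1, at 301. *Scg5* measured 397, 467 and 389 among Dbx1 samples, against 179, 248 and 352 among non-Dbx1 samples. All Dbx1 samples lay above all non-Dbx1 samples, a pattern found in 5.35% of tested genes, with an L2FC of 0.73 (standard error 0.29, limma FDR = 0.912). *Syt4*, a synaptotagmin of dense-core vesicles, measured 58.5, 57.8 and 72.5 against 99.8, 87.7 and 121, an L2FC of −0.70 (standard error 0.23, limma FDR = 0.870). Here the non-Dbx1 samples were all higher, as in 5.24% of tested genes and as they were for *Furin*, a convertase of the Golgi, at 0.978, 0.927 and 1.42 RPKM against 0.0156, 0.206 and 0.428 in the Dbx1 samples. *Pcsk1*, the convertase of many neuropeptides, was picked after its values were seen because its groups did not overlap either, at 0, 0.616 and 0.491 among Dbx1 samples, against 0.642, 2.37 and 6.68 among non-Dbx1 samples (limma FDR = 0.912).

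**Figure D4:**
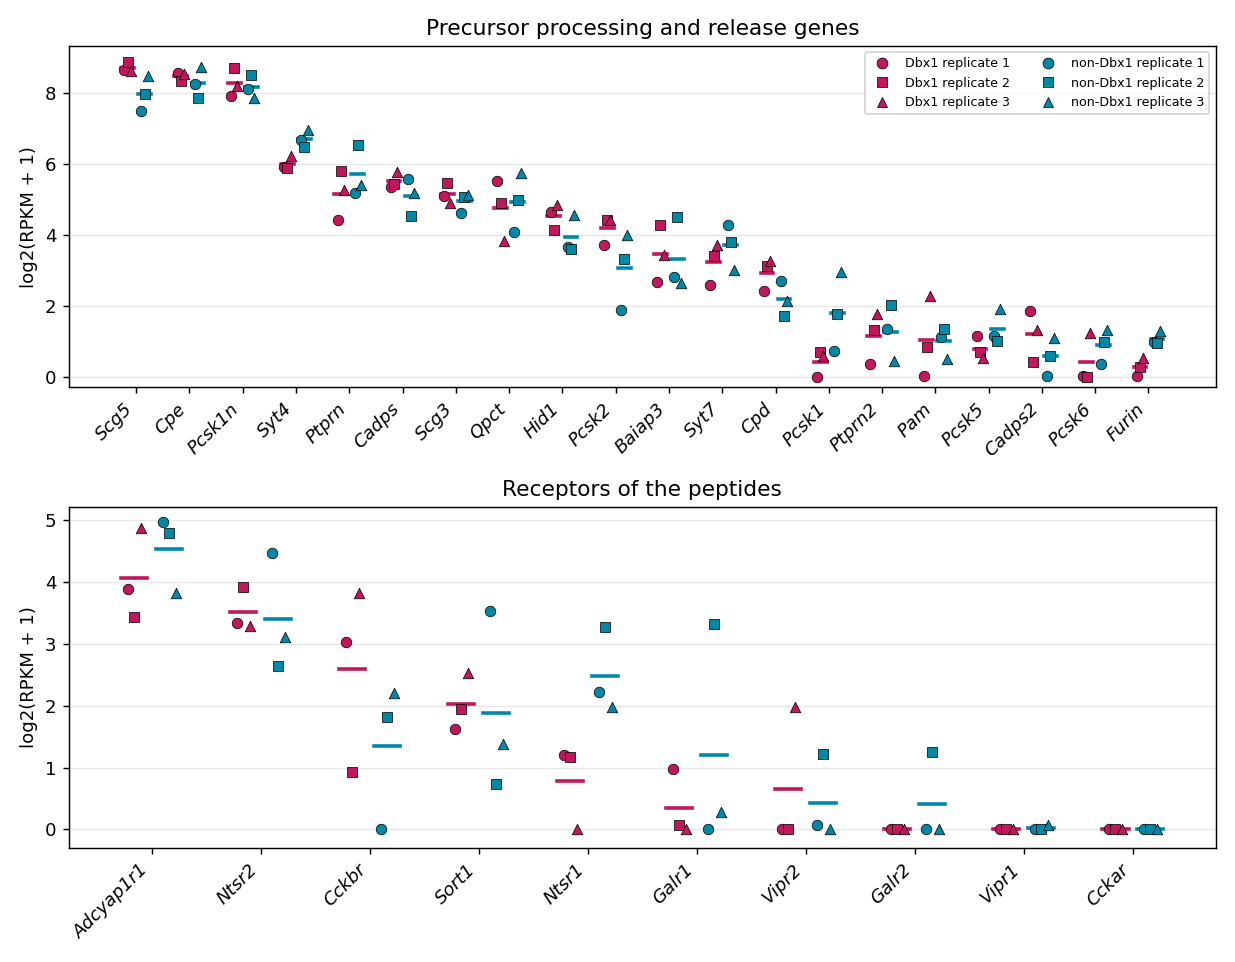
Levels on a log2(RPKM + 1) axis of 20 genes that process or release precursors (top) and of 10 receptors of the peptides (bottom), with 1 point per sample (magenta for Dbx1, blue for non-Dbx1) and a bar at each group mean of the log2 values. *Scg5*, *Cpe* and *Pcsk1n* stand highest, the receptors are lower, and *Cckar* is at 0 in all samples.

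The receptors of these peptides were expressed at lower levels. Of 10 receptor genes in the data, 9 had reads in at least 1 sample, 3 had reads in all 6, and 0 of the 7 tested passed an FDR of 0.1 in limma, with 1, higher in non-Dbx1 samples, at an unadjusted p under 0.05 (background 0.00568% and 2.48% for that direction). *Adcyap1r1*, the PACAP-selective receptor, was highest, at 13.8, 9.82 and 28.3 RPKM among Dbx1 samples, against 30.4, 26.8 and 13.2 among non-Dbx1 samples. Its groups overlapped, unlike those of its ligand (L2FC −0.47, standard error 0.45, limma FDR = 0.951). *Ntsr2*, a neurotensin receptor that astrocytes also express, averaged 10.7 ± 3.03 and 11.3 ± 8.62 RPKM (SD, n = 3). *Ntsr1*, the high-affinity neurotensin receptor, was the gene with p under 0.05, at 1.30, 1.24 and 0 against 3.64, 8.63 and 2.92, and its non-Dbx1 samples were all higher, as in 5.24% of tested genes (L2FC −1.70, standard error 0.64, limma FDR = 0.912). *Cckbr*, the brain cholecystokinin receptor, measured 7.14, 0.907 and 13.2 against 0, 2.54 and 3.62 (limma FDR = 0.940). *Galr1*, a galanin receptor, measured 0.964, 0.0463 and 0 against 0, 8.96 and 0.222, so that most of it lay in non-Dbx1 replicate 2 (limma FDR = 0.951).

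The genes most like the 3 most variable precursors across the 6 samples were named by Pearson's r of log2(RPKM + 1) among genes with a mean RPKM of at least 10, as a description. For *Cartpt* these were *Gm14303*, *Grsf1* and *Chpf*, with r from 0.968 to 0.969. For *Adcyap1* they were *Gstm1*, *Ogfr* and *Fads2*, with r from 0.973 to 0.985, and *Gstm1* measured 18.6, 15.6 and 32.4 RPKM among Dbx1 samples, against 54.1, 84.6 and 52.0 among non-Dbx1 samples. For *Gal* they included *Fam136a*, with an r of 0.977, and *Isoc1*, with an r of 0.972. With 6 points and 4424 to 4425 genes compared, 6 to 7 genes exceeded an r of 0.95 with each precursor, and the points share library and depth.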

How the data were processed

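The authors aligned single-end reads to mm10 with Tophat2, sorted them with Samtools, counted them without strand on the gene names of an Ensembl annotation with HTSeq, and divided by exon length and depth. The deposited values are RPKM for 49568 gene names in each of 6 samples, without counts and without scaling between samples. The annotation release is not given in the sources used here. The labels name TopHat2, SAMtools and HTSeq without versions.

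The depth of each sample followed from the spacing of its RPKM values. Read numbers of a gene are the lowest whole numbers (tolerance 0.003) that give its value in every sample. They summed to 98.6% to 99.0% of the depth. Positions came from GENCODE vM21, which matched 95.3% of names, and no other annotated gene overlapped the 10 genes.

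The authors tested counts with DESeq2. As RPKM were deposited, limma 3.58.1 in R 4.3.3 (lmFit, eBayes with a trend, two-sided) was used on log2(RPKM + 1) for genes above 0 in at least 3 samples, and a Benjamini-Hochberg FDR under 0.1 was required. This scale understates changes of low genes. With their own test of the same 6 samples, the authors called several genes at an FDR under 0.1, among them *Hif1a*, *Pbx3* and *Gata2*. The limma fit called 1 of 17614 genes, and voom on recovered reads called 0 of 13938. A gene not called here is therefore not shown to miss the threshold in the authors' test. Why the tests differ in their calls was not examined. Single genes were compared by exact two-sided permutation tests in Python 3.11.15 with scipy 1.17.1. The limma fit was also run on simulated counts with the same dispersion for every gene. These do not match the spread of the most variable precursors, so no conclusion about them is drawn from that run. The labels pair no samples, as all mice differed, and p-values measure the spread between 3 mice per group. The genes and lists were chosen with earlier results of these data known. All 10 precursors are named, with the 3 highest and the 3 of lowest p in the processing and receptor lists, and the 3 genes most like each of the 3 precursors of widest SD. *Galr3* was not analysed here. A gene of the marker lists and a gene most like a precursor are not reported here. Alternatives were another pseudocount, 2 filters, 2 normalizations, no trend, a replicate block, voom on recovered reads, each sample left out, and ratios of means. Merged exon lengths were added after seeing the data.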

Additional observations from a re-analysis of the deposited data

How the results depend on the processing

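No precursor, processing or receptor gene passed an FDR of 0.1 under any of the 14 refits of the limma test, the lowest FDR being 0.384 for *Adcyap1* among genes that reached 1 RPKM in 3 or more samples. L2FC stayed below 0 under all 15 alternatives for *Adcyap1* (−5.60 to −3.42), *Cartpt* (−3.81 to −0.22), *Scg2* (−1.36 to −0.63) and *Vgf* (−1.07 to −0.04). The 2 filters, no trend and the replicate block cannot change an L2FC. As the groups of *Adcyap1* and *Scg2* did not overlap, another pseudocount, a sample left out or a ratio of means could not change their sign. It changed sign for *Cck* without Dbx1 replicate 2 (−0.25), and for *Chga* without Dbx1 replicate 3 (−0.15) or non-Dbx1 replicate 2 (−0.08). It also changed sign for *Chgb* without non-Dbx1 replicate 2 (0.11). For *Gal* it was −0.10 without Dbx1 replicate 1, −0.27 and −0.37 without non-Dbx1 replicates 1 and 2, and −0.60 as the log2 ratio of group mean RPKM. With 1 sample left out, the range was −0.25 to 1.47 for *Cck*, −0.37 to 1.44 for *Gal*, −0.15 to 0.16 for *Chga* and −0.64 to 0.11 for *Chgb*. The causes were not tested. With the replicate number as a block, 0 precursors passed, and *Adcyap1* had an FDR of 0.980. The 3 pairs with the same number had correlations of deviations of −0.107, 0.025 and −0.052, beside −0.082 to 0.133 for pairs with different numbers. With 3 samples per group, such correlations cannot decide whether the numbers pair samples. *Scg2* moved from place 3 to place 2 by the median over samples and to place 1 with merged exon lengths. Values of 1 to 13 reads, in *Adcyap1*, *Gal* and *Nts*, carry wide counting error.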
